A study of Mus musculus with 40 samples.

Results

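A set of 8 genes used as markers of layer 5 pyramidal neurons, Rbp4, Fezf2, Etv1, Bcl11b, Ldb2, Crym, Bcl6 and Tmem232, were followed through 40 RNA-seq libraries of mouse forebrain. They were taken by symbol and Ensembl identifier, 8 of the 41388 genes in the count tables, and all 8 passed the filter on low counts. In the RBP4-TRAP mice, Cre from the transgene Tg(RBP4-cre)KL100Gsat switches on an EGFP-tagged ribosomal protein, EGFP/Rpl10a, mainly in layer 5 pyramidal neurons, and in the VGAT-TRAP mice Cre from the Slc32a1 locus switches on the same Rosa26 reporter in inhibitory neurons. Each line gave 5 replicates, each a pool of 2 to 3 forebrains of both sexes at 21 days after birth, and every pool was divided into whole cell homogenate (WCH), ribosome-bound RNA captured from the homogenate with antibodies to GFP (TRAP), synaptoneurosome RNA (SNF, a gradient fraction rich in pinched-off synapses) and ribosome-bound RNA captured from that fraction (SynapTRAP, ST). The tagged protein and Cre were thus carried by the controls too, since WCH and SNF came from the same animals as TRAP and ST, and no untreated or untagged mice were compared. The labels name the tissue as cortex, while the dissection protocol names forebrain, so that striatal neurons were part of the material. The Rbp4-cre transgene is a bacterial artificial chromosome built around Rbp4, and reads from the transgene and from the gene itself could not be told apart in counts per gene.

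Layer 5 holds the large pyramidal neurons whose axons leave the cortex for the brainstem, spinal cord and striatum, together with neurons that project across the callosum. Fezf2 and Bcl11b are transcription factors that set the fate of the neurons projecting below the cortex, and Etv1 is an ETS factor long used to label the layer. Bcl11b is also well known from striatal projection neurons and from many interneurons, and Rbp4 encodes the carrier of retinol in blood.

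The libraries held 14259535 to 22037703 counts each, and levels are given as cpm, the counts of a gene scaled to a common library size without mitochondrial, rRNA and tRNA genes, so that 1 count was worth 0.0455 to 0.112 cpm. Mitochondrial genes took 11.2% to 41.9% of the counts in SNF, 2.71% to 19.0% in ST, 2.01% to 10.004% in WCH and 0.0584% to 0.511% in TRAP. Slc17a7, the vesicular glutamate transporter of cortical pyramidal neurons, had a mean of 552 ± 87.5 cpm (SD, n = 5) in RBP4 TRAP and 58.5 ± 55.0 in VGAT TRAP. Slc32a1, the vesicular GABA transporter, had 2.88 ± 1.396 cpm and 58.4 ± 11.6 cpm in the same groups, and Drd1, the dopamine receptor of direct pathway striatal neurons, 10.4 ± 3.35 and 91.02 ± 13.5 cpm. Both transporters followed the labels. Of the lists they belong to, 7 of 7 glutamatergic markers were higher in RBP4 TRAP than in VGAT TRAP and 16 of 16 interneuron markers were lower, where 12.9% and 15.1% of all genes were. Against WCH of the same line, 2 of 7 glutamatergic markers were higher in RBP4 TRAP, 1 was lower and 4 were not called, where 8.37% of all genes were higher and 31.5% lower. In VGAT TRAP 16 of 16 interneuron markers were higher than in WCH, where 21.0% of all genes were. Several libraries stood apart. VGAT TRAP replicate 3 had 155 cpm of Slc17a7 against 24.6 to 48.8 in the other 4, and RBP4 ST replicate 4 had 49.9 cpm of Slc32a1 against 10.9 to 19.7 in the other 4. Replicate 3 of both lines had the highest mitochondrial share, 40.2% (RBP4) and 41.9% (VGAT) in SNF against 11.2% to 19.4% in the other 8 libraries, and 15.8% and 19.0% in ST against 2.71% to 7.08%. RBP4 TRAP replicate 5 held 5508 cpm of summed oligodendrocyte markers against 388 to 929 in the other 4, and VGAT ST replicates 1 and 2 held 349 and 409 cpm of Sst, an interneuron neuropeptide, against 1143 to 2094 in the other 3. VGAT TRAP replicate 3 and RBP4 ST replicate 4 were left out singly, and the others with their whole pool. Values without them are given where a call or a value changed, and their part in the results was otherwise not tested.

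The promoter of the gene that names the RBP4 line carries a TATA box at the usual distance from its RefSeq start, and it is shown because Rbp4 was most abundant in the other line. Of the 8 members, 6 had an entry in the RefSeq promoter table (GRCm38.p6, 250 bases before to 50 after the start), with 9 windows in all. TATAAA was searched on both strands and lay in 3 of these 9 windows, against 13.616% of all 32851 windows. On the gene's own strand, in a stretch from 40 to somewhat fewer than 20 bases before the start, it was present in 1, that of Rbp4, and in 2.079% of all windows. The Sst promoter is shown beside it because Sst was among the genes closest to Rbp4 in pattern, and it holds the cAMP response element TGACGTCA that the somatostatin gene is known for, a motif present on either strand in 1.79% of all windows and in 0 of the members' windows. Capitals mark the motif in each stretch of 30 bases, read 5′ to 3′ on the minus strand.
Rbp4, chr19:38124822-38124851, motif 28 bases before the start: tccccccggagcTATAAAggaccgacggcc
Sst, chr16:23890874-23890903, motif 48 bases before the start: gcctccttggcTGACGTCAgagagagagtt
A match describes the letters in the window and is not evidence that a factor binds there. The annotated span of Rbp4 used for the counts reaches further upstream, to 38125321, so the printed stretch lies inside that span. Which start is used was not tested.

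Rbp4 (ENSMUSG00000024990) spans chr19:38116620-38125321 on the minus strand in the GRCm38 coordinates of the files, with 1297 bases of exons. Its level in RBP4 TRAP was 20.4, 26.4, 25.2, 20.1 and 15.1 cpm in pools 1 to 5, and in RBP4 WCH it was 16.8, 10.5, 12.9, 14.3 and 9.69 cpm. Each pool had more in TRAP than in WCH although the ranges overlapped. In VGAT TRAP the level was 111, 109, 101, 154 and 104 cpm, and in VGAT WCH it was 16.1, 12.9, 13.5, 15.9 and 13.9 cpm. The 5 VGAT TRAP libraries lay above all 35 others, so the retinol carrier that names the pyramidal line was most abundant in ribosomes of the inhibitory line. In SNF it was 22.6, 41.2, 25.6, 23.2 and 16.6 cpm in the RBP4 line and 29.6, 37.2, 25.9, 33.8 and 31.9 cpm in the VGAT line. ST held 19.9, 37.0, 9.89, 11.9 and 23.1 cpm in the RBP4 line and 22.9, 25.5, 46.5, 63.2 and 74.3 cpm in the VGAT line. The ST groups of the lines overlapped, and the VGAT ST libraries were spread from below the RBP4 maximum to well above it. From the highest mean to the lowest the order was VGAT TRAP, VGAT ST, VGAT SNF, RBP4 SNF, RBP4 TRAP, RBP4 ST, VGAT WCH and RBP4 WCH, and only the first stood clear of its neighbour.

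Fezf2 (ENSMUSG00000021743, chr14:12341892-12345865, minus strand), the zinc finger factor of subcerebral projection neurons, stood at the other end. RBP4 TRAP held 120, 142, 117, 168 and 79.5 cpm, and VGAT TRAP held 4.27, 4.10, 18.6, 5.76 and 5.69 cpm. All 5 RBP4 TRAP libraries were above the other 35, and the highest VGAT TRAP value was that of replicate 3. The WCH values were 54.5, 39.5, 29.5, 63.3 and 31.7 cpm in the RBP4 line and 57.4, 40.9, 33.8, 37.5 and 38.0 cpm in the VGAT line. SNF had 15.7, 15.8, 12.2, 26.9 and 23.8 cpm in the RBP4 line and 26.8, 21.1, 14.5, 17.3 and 20.1 cpm in the VGAT line. ST had 17.1, 17.6, 10.9, 19.5 and 46.4 cpm and 18.9, 16.7, 17.2, 17.9 and 14.9 cpm in the same order. The synaptic fractions of both lines overlapped, and 1 RBP4 ST library, replicate 5, exceeded the other 4 by more than their whole range. The 16.3-fold span between the highest and lowest group mean was the widest of the 8 members, and without VGAT TRAP replicate 3, where that group's mean was 4.95 ± 0.891 cpm (SD, n = 4), it was 25.3-fold.

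Etv1 (ENSMUSG00000004151, chr12:38779380-38868215, plus strand) had 134, 150, 137, 144 and 97.2 cpm in RBP4 TRAP. Its VGAT TRAP values were 31.3, 29.2, 33.7, 21.7 and 29.7 cpm. The WCH means, 82.6 ± 8.07 cpm (RBP4) and 88.2 ± 13.2 cpm (VGAT; SD, n = 5), lay between the means of the TRAP groups, and the TRAP groups did not overlap. Both SNF means were lower than WCH, at 33.1 ± 5.52 cpm (RBP4) and 38.4 ± 5.00 cpm (VGAT), and ST was nearly equal in the 2 lines, at 47.1 ± 12.8 and 47.0 ± 5.39 cpm.

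Bcl11b (ENSMUSG00000048251, chr12:107910403-108003602, minus strand), the zinc finger factor shared by subcerebral and striatal neurons, was highest in VGAT TRAP, at 146, 149, 130, 117 and 126 cpm. RBP4 TRAP held 66.0, 54.9, 56.3, 83.4 and 55.5 cpm. All 5 VGAT TRAP libraries were above all RBP4 TRAP libraries, the direction opposite to Fezf2. WCH had 87.9 ± 20.6 cpm (RBP4) and 99.7 ± 15.7 cpm (VGAT), SNF 47.6 ± 10.6 and 58.8 ± 13.0, and ST 66.2 ± 16.8 and 77.5 ± 5.15 (SD, n = 5). Each group overlapped with its neighbours in the order of means.

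Ldb2 (ENSMUSG00000039706, chr5:44472133-44799707, minus strand) encodes a protein that binds the LIM domains of transcription factors. It had 160, 155, 131, 170 and 120 cpm in RBP4 TRAP, above every other library. In VGAT TRAP it had 32.1, 32.7, 47.6, 28.9 and 36.7 cpm, the highest again in replicate 3. VGAT ST was at the same level, with 36.0 ± 8.84 cpm, and the other synaptic groups had 48.2 ± 5.08 (RBP4 SNF), 49.4 ± 15.3 (RBP4 ST) and 49.2 ± 6.12 cpm (VGAT SNF), all below the WCH means of 94.6 ± 11.97 and 108 ± 9.27 cpm (SD, n = 5).

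Crym (ENSMUSG00000030905, chr7:120186380-120202111, minus strand), which encodes a thyroid hormone-binding protein of the cytosol and marks subcerebral projection neurons, was steady within TRAP of the RBP4 line. Its RBP4 TRAP values were 372, 404, 408, 438 and 375 cpm, and its VGAT TRAP values were 121, 86.2, 79.8, 52.3 and 73.7 cpm. RBP4 TRAP was above every other library. The RBP4 line varied widely outside TRAP, from 136 to 279 cpm in WCH, 81.2 to 185 in SNF and 77.9 to 255 in ST, while the VGAT line ran from 126 to 211, 64.1 to 92.9 and 74.5 to 115 cpm in the same fractions.

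Bcl6 (ENSMUSG00000022508, chr16:23965052-23988852, minus strand), a transcriptional repressor, had the narrowest span, 2.51-fold between the highest and lowest group mean. RBP4 TRAP had 24.2, 28.9, 31.03, 22.2 and 29.2 cpm and VGAT TRAP 13.2, 12.2, 14.03, 10.7 and 11.3 cpm. In RBP4 ST the 5 libraries were close together, at 20.2, 19.0, 18.9, 19.0 and 21.0 cpm, and above the 12.4, 11.9, 12.6, 15.2 and 14.8 cpm of RBP4 SNF. VGAT ST had 18.3, 14.8, 12.9, 10.2 and 12.9 cpm, so the ST groups of the 2 lines did not overlap.

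Tmem232 (ENSMUSG00000045036, chr17:65256005-65540782, minus strand) encodes a transmembrane protein of little-known function and had the fewest counts, 11 to 432 counts per library. RBP4 TRAP held 22.4, 13.3, 15.7, 19.7 and 17.5 cpm and VGAT TRAP 0.701, 1.43, 1.91, 1.22 and 1.17 cpm, the latter from 11 to 30 counts. Its ST values were 6.56, 8.61, 4.01, 4.36 and 11.8 cpm in the RBP4 line and 1.88, 3.85, 2.37, 3.27 and 2.46 cpm in the VGAT line. Here too the ST groups did not overlap, while WCH had 7.63 ± 1.58 and 5.83 ± 0.280 cpm (SD, n = 5).

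**Figure D1:**
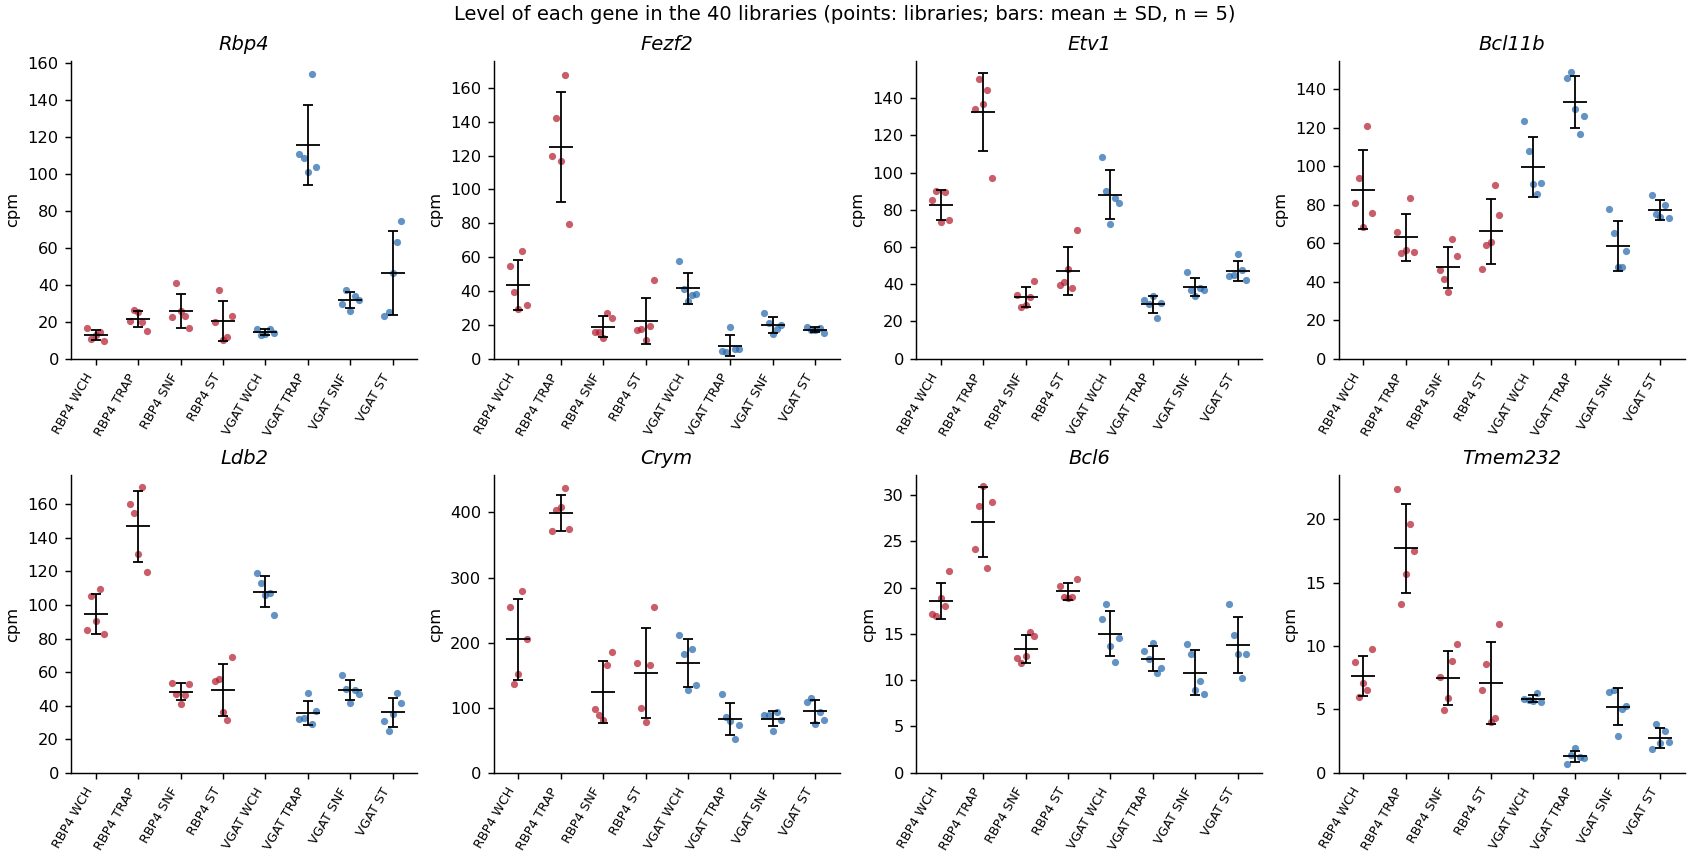
Level of each of the 8 genes (cpm, y axis from 0) in the 5 libraries of each group (x axis; red, RBP4 line; blue, VGAT line), with the mean and SD. Rbp4 peaks in VGAT TRAP (mean 116 cpm) and Bcl11b is also highest there, while the other 6 peak in RBP4 TRAP.

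Per length of exon, in cpm per kilobase, Crym had the highest level of the 8 in 6 of the 8 groups, from 24.5 in VGAT SNF to 118 in RBP4 TRAP. In VGAT TRAP the first place went to Rbp4, with 89.2 cpm per kilobase against 24.3 for Crym, and in VGAT ST likewise, with 35.8 against 27.9. Without the division by length Rbp4 was not first, at 116 cpm against 133 for Bcl11b in VGAT TRAP. In VGAT ST it had 46.5 cpm against 94.5 for Crym and 77.5 for Bcl11b. The paper reports reads heavily biased in their position along transcripts, and whether counts grew with exon length was not tested. Fezf2 was behind Crym and Ldb2 in RBP4 TRAP, at 54.3 cpm per kilobase, and ahead of only Bcl6 and Tmem232 in VGAT TRAP, at 3.33. Bcl6 and Tmem232 held the last 2 places in all 8 groups.

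Whether capture of tagged ribosomes enriched these transcripts was asked by comparing TRAP with WCH of the same line. In the RBP4 line Fezf2, Tmem232, Crym, Rbp4, Etv1, Ldb2 and Bcl6 were higher in TRAP, 7 of 8 members, where 8.37% of all 17043 genes tested were higher, and 0 were lower, where 31.5% of all genes were lower. Crym rose by a log2 fold change of 0.96 (standard error 0.28), Ldb2 by 0.64 (0.18) and Bcl6 by 0.55 (0.15). Their Benjamini-Hochberg adjusted p by the edgeR quasi-likelihood test lay between 0.00578 and 0.0099. Fezf2 rose by 1.52 (0.32, 2.86-fold), Tmem232 by 1.21 (0.27) and Etv1 by 0.68 (0.18). They are given with no test, because the same RBP4 TRAP libraries entered differences between lines known when the members were chosen. In all 7 members every pool was higher in TRAP. The ranges of TRAP and WCH were apart in 6, Rbp4 being the exception, and the share over all genes was not counted. Rbp4 rose by 0.74 (0.29), likewise given with no test, and its call was lost whichever of the 5 pools was left out (0.59 to 0.88). Without pool 1 Ldb2 had a log2 fold change of 0.57 (adjusted p = 0.0627). Bcl11b had -0.48 (0.20) with an adjusted p of 0.0644, lower in TRAP in 5 of 5 pools, and with the pool as a block the adjusted p was 0.0140. The change of Rbp4 was known when the members were chosen, so the count of 7 is not independent of that choice. Those of Rbp4 and Fezf2 between VGAT TRAP and WCH were known too. As bulk samples, these libraries cannot tell fewer cells of a type from less RNA per cell.

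In the VGAT line the same capture gave the opposite for 5 members. Tmem232, Fezf2, Etv1, Ldb2 and Crym were lower in TRAP than in WCH, 5 of 8 where 41.8% of all 16990 genes were lower, and Rbp4 and Bcl11b were higher, 2 of 8 where 21.0% were higher. The changes of Fezf2 and Rbp4 were known when the members were chosen, so these counts are not independent of that choice. Fezf2 had a log2 fold change of -2.44 (standard error 0.31), Tmem232 -2.18 (0.26) and Etv1 -1.60 (0.13), given as a description with no test. For Tmem232 and Etv1 the same VGAT TRAP libraries entered a known difference between lines. Ldb2 had -1.60 (0.16, edgeR adjusted p = 4.29e-08) and Crym -1.04 (0.19, adjusted p = 7.62e-05). TRAP and WCH did not overlap in any of these 5, and the share over all genes was not counted. Rbp4 rose by 3.001 (0.25), likewise given with no test. Bcl11b rose by 0.42 (0.14, edgeR adjusted p = 0.0104), higher in 5 of 5 pools with overlapping ranges. Bcl6 had -0.29 (0.17) and did not pass (adjusted p = 0.136). Without VGAT TRAP replicate 3, the library with more Slc17a7, Fezf2 had -3.06 (0.20) and the other 7 members kept the direction and the side of the threshold given here.

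Beside these counts stands a shift common to all genes. The median log2 fold change of TRAP against WCH was -0.34 (RBP4) and -0.31 (VGAT), so that relative to the median gene Bcl11b had -0.14 in the RBP4 line and Crym -0.72 in the VGAT line. With DESeq2 size factors the medians were -0.06 and -0.08, higher calls made up 46.0% of all called genes in the RBP4 line instead of 21.0% and 46.4% instead of 33.4% in the VGAT line, and the members' counts were the same, 7 and 0, 2 and 5.

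**Figure D2:**
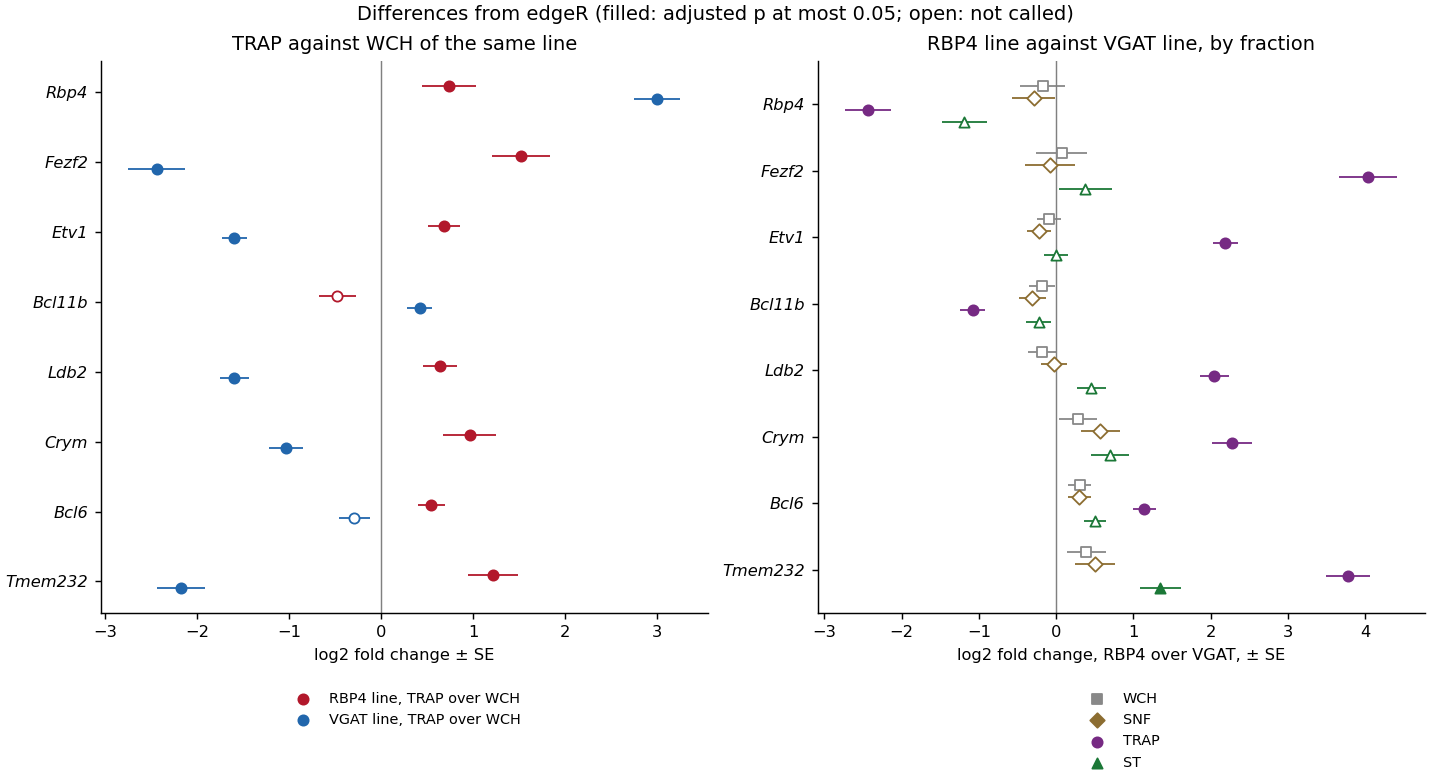
Left, log2 fold change of TRAP over WCH in each line. Right, log2 fold change of the RBP4 over the VGAT line in each fraction. Bars are standard errors and filled symbols passed the adjusted p threshold of 0.05: TRAP separates the lines for all 8 genes, by 4.03 for Fezf2 to -2.43 for Rbp4, and the only other filled symbol is Tmem232 in ST (1.35). Known when the members were chosen, and thus shown as a description, were the TRAP differences between lines of Fezf2, Rbp4, Etv1 and Tmem232. So were TRAP over WCH of Rbp4 in both lines and of Fezf2 in the VGAT line.

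Direct comparison of TRAP between the lines gave Ldb2, Crym and Bcl6 as higher in RBP4 TRAP and Bcl11b as lower. The differences of Fezf2, Rbp4, Etv1 and Tmem232 were known when the members were chosen and are given as a description, with no test. Over all genes, 12.9% were higher and 15.1% lower by the edgeR test. For each member, 4 of them chosen with their difference known, the 5 RBP4 and the 5 VGAT libraries did not overlap. The share of all genes without overlap was not counted, so this describes the members and sets them apart from no other gene. On the log2 scale Crym was higher by 2.27 with a standard error of 0.26 (edgeR adjusted p = 3.01e-08), Ldb2 by 2.05 (0.19, adjusted p = 6.88e-10) and Bcl6 by 1.14 (0.15, adjusted p = 3.99e-07). Bcl11b was lower by a log2 fold change of -1.08 (0.16, adjusted p = 6.29e-06). The differences of the 4 described genes were 4.03 (0.38) for Fezf2, or 4.65 (0.34) without VGAT TRAP replicate 3, 3.78 for Tmem232, 2.19 for Etv1 and -2.43 for Rbp4.

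Before capture few genes differed between the lines. In WCH 0 members passed the edgeR test, against 0.00592% of all genes higher and 0.00592% lower, which is 1 gene each way (2 and 1 with DESeq2 size factors). At an unadjusted p under 0.05 there was 1 member, Bcl6, and DESeq2 called 0. Fezf2 had a log2 fold change of 0.07 with a 95% interval of -0.58 to 0.72, and Rbp4 had -0.17, from -0.74 to 0.40. In SNF 0 members passed as well, where 0.00564% of all genes were higher and 0.0113% lower, with 1 member, Crym, at an unadjusted p under 0.05 and 0 called by DESeq2. There Crym had 0.57 with an interval of 0.08 to 1.06, and Rbp4 had -0.29, from -0.83 to 0.25. With 5 pools, differences within these intervals and some beyond them could be missed. The interval of Crym in SNF lay clear of 0 and still gave no call over all genes.

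The contrast between lines in TRAP minus that in WCH, a test of the interaction, was called for all 8 members, 6 higher where 5.63% of all genes were, and 2 lower where 6.97% were. It was 2.23 (standard error 0.26) for Ldb2, 1.996 (0.35) for Crym, 0.84 (0.21) for Bcl6 and -0.90 (0.23) for Bcl11b, with edgeR adjusted p of at most 0.00717. For the members with a known TRAP difference it is given as a description with no test. There it was 3.96 (0.49) for Fezf2, 3.39 (0.37) for Tmem232, 2.28 (0.22) for Etv1 and -2.26 (0.41) for Rbp4. Without VGAT TRAP replicate 3 that of Fezf2 was 4.58 (0.42). The interaction shares its TRAP and WCH libraries with the comparisons above, in which 4 of the 8 members had known differences, so the counts are not independent of how the members were chosen. All 8 calls were kept in each of the 20 alternatives run.

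Over the 40 libraries Rbp4 was closest in pattern to genes of interneurons. Its log2(cpm + 1) correlated with that of Cort (r = 0.954), Sst (r = 0.927) and Gm1673 (r = 0.916) more closely than with any other of 14017 genes. Cort and Sst encode neuropeptides of a class of cortical interneurons. Its correlation with the other members was between -0.65 and -0.49, except for Bcl11b (0.30). The libraries share line, fraction and pool, so these values describe the 40 libraries and carry no p. In VGAT ST the 3 genes ranked the pools in the same order, as pools 1 to 5 had 349, 409, 1143, 1429 and 2094 cpm of Sst beside 22.9, 25.5, 46.5, 63.2 and 74.3 cpm of Rbp4. Cort had 8.92, 9.97, 21.3, 29.1 and 36.6 cpm in the same libraries. In RBP4 TRAP, where Rbp4 was 21.4 ± 4.55 cpm, Cort was 4.98 ± 1.16 and Sst 145 ± 25.2 cpm (SD, n = 5), while in VGAT TRAP they were 66.8 ± 15.2 and 2825 ± 478 cpm.

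**Figure D3:**
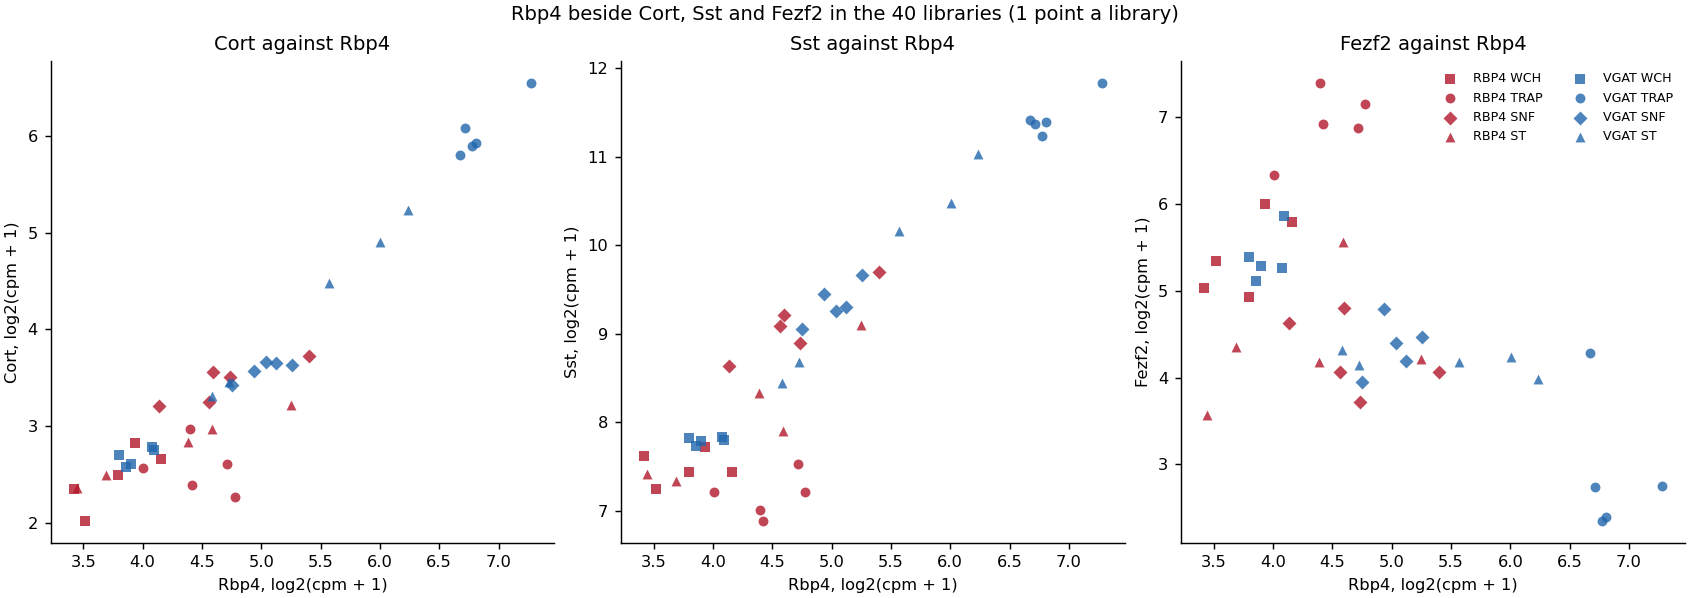
Log2(cpm + 1) of Cort, Sst and Fezf2 (y axes) against that of Rbp4 (x axis), 1 point a library, red for the RBP4 and blue for the VGAT line. Cort and Sst climb with Rbp4 to the 5 VGAT TRAP libraries at the upper right (r = 0.954 and 0.927), and RBP4 TRAP lies below that line for both, while Fezf2 is lowest where Rbp4 is highest.

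The other members but Bcl11b followed one another. Fezf2, Etv1, Ldb2, Crym, Bcl6 and Tmem232 had correlations of 0.60 to 0.91 with each other, the highest between Fezf2 and Etv1 (0.91). Closest to Fezf2 were Myl4 (r = 0.958), Pdlim1 (0.948) and Tnnc1 (0.939). Myl4 had 164 cpm in RBP4 TRAP and 12.7 in VGAT TRAP, and Tnnc1, a troponin, had 168 and 10.4 cpm. Etv1 was closest to Ovol2 (0.929), Osbpl1a (0.928) and Net1 (0.922), Ldb2 to Dtl (0.952), A630023P12Rik (0.946) and Kctd4 (0.943), and Crym to Fam131a (0.936), Aldh3b2 (0.901) and Pdlim1 (0.901). Tmem232 was closest to Tdo2 (0.905), which encodes tryptophan dioxygenase, with 18.4 cpm in RBP4 TRAP and 0.906 in VGAT TRAP, then to Kcnk4 (0.888) and Pdlim1 (0.884). Bcl6 had looser neighbours, Plekhg5 (0.858), Fam131a (0.844) and Crym (0.819). Bcl11b kept to itself among the members, with correlations of -0.48 to 0.30, and its neighbours Ubfd1 (0.904), Cyld (0.902) and Ttll11 (0.893) were likewise higher in VGAT TRAP than in RBP4 TRAP, at 163 against 75.5, 112 against 58.02 and 32.6 against 17.4 cpm.

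Among 18 other genes of layer 5 and corticospinal neurons, 10 were higher in RBP4 TRAP than in VGAT TRAP, 5 were lower and 3 did not pass the edgeR test. Of all genes 12.9% were higher and 15.1% lower, and the median log2 fold change was 0.67 against -0.01 over all genes. Npr3, a natriuretic peptide receptor, was higher by 2.44 (standard error 0.29), at 6.91 against 1.28 cpm, and Diaph3, a formin, by 2.23 (0.26). Scn4b, a sodium channel subunit also abundant in striatum, was lower by a log2 fold change of -2.70 (0.27), at 19.8 against 129 cpm, and Pcp4, a calmodulin regulator also abundant in striatum, by -0.82 (0.31), a call lost with TMM factors. Against WCH, 5 of the 18 were higher in RBP4 TRAP, among them Opn3 (1.72, standard error 0.38) and S100a10 (1.37, 0.29), and 4 lower, among them Tshz2 (-1.34, 0.19) and Scn4b (-0.78, 0.27). There 8.37% of all genes were higher and 31.5% lower. Under TMM factors these counts were 7 and 1, beside 19.3% and 22.4% of all genes, and Scn4b was no longer called. In VGAT TRAP against WCH, 6 were higher, led by Pcp4 (1.82, 0.20) and Scn4b (1.48, 0.25), and 7 lower, led by Tshz2 (-2.46, 0.21) and Npr3 (-2.39, 0.32). Of all genes 21.0% were higher and 41.8% lower in that comparison.

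**Figure D4:**
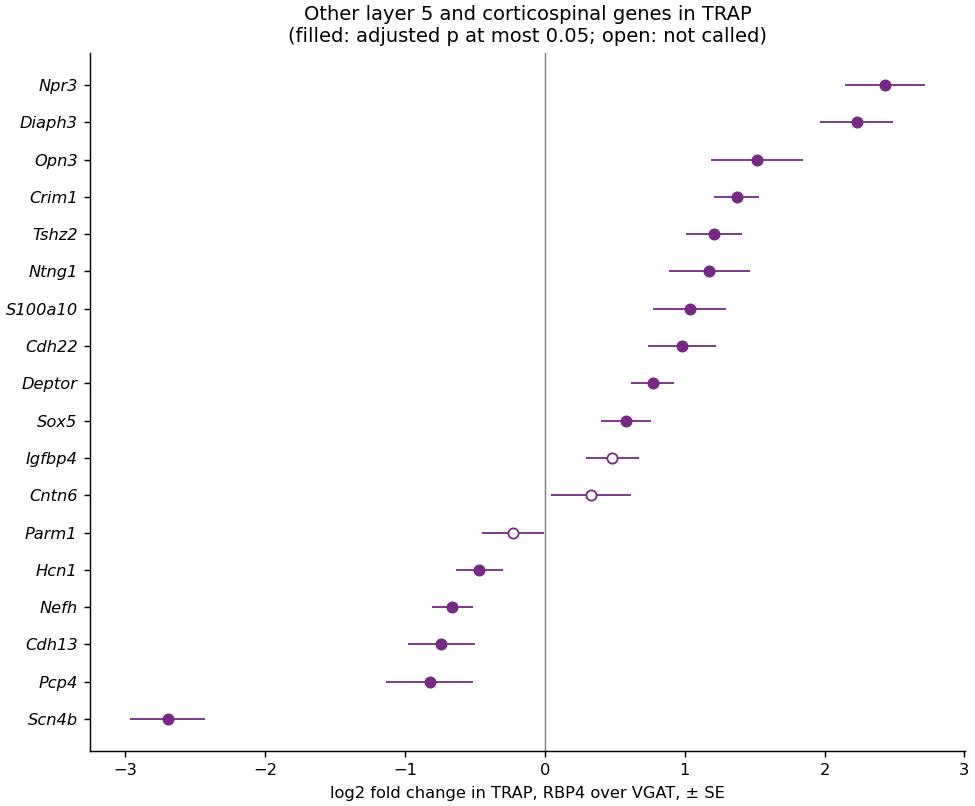
Log2 fold change (x axis) of TRAP, RBP4 over VGAT, for 18 other layer 5 and corticospinal genes, with the standard error. Filled points passed an adjusted p of 0.05: 10 lie to the right, led by Npr3 (2.44), and 5 to the left, led by Scn4b (-2.70). Of all genes 12.9% were higher and 15.1% lower.

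Markers of neighbouring classes stood beside these values. Of 10 upper layer and callosal genes, 7 were higher in RBP4 TRAP than in VGAT TRAP and 2 lower, of 6 layer 6 genes 2 were higher and 3 lower, and of 15 striatal projection neuron genes 14 were lower. The shares over all genes were 12.9% higher and 15.1% lower. Foxp2 and Syt6, both layer 6 genes, were among the lower, at -2.44 (standard error 0.23) and -3.95 (0.26). Within the RBP4 line 5 of 6 layer 6 genes were lower in TRAP than in WCH, led by Syt6 (-3.04, 0.27), and 2 of 10 upper layer genes were higher, Pou3f1 (0.91, 0.25) and Lmo4 (0.74, 0.23), and 4 lower. Over all genes 8.37% were higher and 31.5% lower in this step. In VGAT TRAP the summed striatal markers reached 4339 to 6416 cpm, against 435 to 710 in RBP4 TRAP. Their part in the levels of Bcl11b was not tested. Of the lists of non-neuronal cells, TRAP over WCH gave 0 astrocyte, 0 oligodendrocyte, 0 microglia and 0 endothelial genes as higher in either line by the edgeR test, and 5 of 6, 5 of 6, 6 of 6 and 3 of 5 were lower in the RBP4 line and 6 of 6, 6 of 6, 6 of 6 and 4 of 5 in the VGAT line. Beside them 31.5% (RBP4) and 41.8% (VGAT) of all genes were lower, and 8.37% and 21.0% higher.

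Rbp4 acts with other genes of retinol transport and retinoic acid signalling, of which 20 were listed and 18 tested between lines in TRAP. Of these, 7 were lower in RBP4 TRAP, led by Crabp1, a binding protein for retinoic acid (log2 fold change -5.73, standard error 0.54), and Rarb, a retinoic acid receptor (-3.58, 0.28, 10.5 against 126 cpm). Rarb also stands on the striatal list. Another 3 were higher, among them Cyp26b1, which degrades retinoic acid (2.05, 0.27, 8.36 against 2.03 cpm), and Rara (0.95, 0.35), and 8 did not pass. By the same test 15.1% of all genes were lower and 12.9% higher. In the RBP4 line Ttr, the blood partner of Rbp4 and a product of the choroid plexus, was lower in TRAP than in WCH by -3.43 (0.51), at 63.1 against 679 cpm, in contrast to Rbp4 itself.

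The synaptoneurosome fraction was compared with WCH to see which of these transcripts were more or less abundant in it. Both hold RNA of all cells, so a change does not show that a transcript left a neuron's cell body. In both lines Rbp4 was higher in SNF, 1 of 8 members, where 13.4% (RBP4) and 19.3% (VGAT) of all genes were higher. It rose by 1.01 (standard error 0.30, edgeR adjusted p = 0.00756) and by 1.13 (0.24, adjusted p = 0.000318), in 5 of 5 pools of each line. Fezf2, Etv1, Bcl11b, Ldb2, Crym and Bcl6 were lower in both lines, 6 of 8 where 36.1% and 45.2% of all genes were lower. Etv1 fell by 1.32 (0.18) in the RBP4 line and by 1.20 (0.13) in the VGAT line, Fezf2 by 1.21 (0.32) and 1.05 (0.29), and Ldb2 by 0.97 (0.19) and 1.13 (0.16), all on the log2 scale. Tmem232 had -0.03 (0.27) and -0.15 (0.24). These values stand beside a median of -0.50 and -0.52 over all genes, relative to which Bcl6, at -0.47 in both lines, lay at 0.03 and 0.045. With DESeq2 size factors, where the median was -0.08 and -0.07, 3 members were lower in each line. The calls kept were Fezf2, Etv1 and Ldb2 in the RBP4 line and Etv1, Ldb2 and Crym in the VGAT line, Tmem232 turned positive (0.38 and 0.30, not called), and higher calls made up 62.2% of all calls instead of 27.1% (RBP4) and 54.3% instead of 29.9% (VGAT). With no genes left out of the library sizes those shares were 15.9% and 20.6%. Crym in the RBP4 line also lost its call without any 1 of pools 1 to 4 (-0.75 to -0.57). Bcl6 in the VGAT line lost its call without pool 2 (-0.46) and without pool 5 (-0.41).

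Glial transcripts and mitochondrial counts differed between these fractions in the same libraries. The summed level of 6 astrocyte markers was 8522 to 24784 cpm in SNF against 2200 to 5296 in WCH, that of 6 oligodendrocyte markers 12186 to 18772 against 6387 to 9866, and in ST the oligodendrocyte sum was 31796 to 54690 cpm. No marker of either list had a mean under 1 cpm in any group. Their part in the members' fold changes was not tested.

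SynapTRAP set against SNF asks which synaptic transcripts were bound by the tagged ribosomes. In the RBP4 line 1 member passed, Bcl6, higher by 0.55 (standard error 0.15, edgeR adjusted p = 0.0190) without overlap between ST and SNF, where 5.64% of all genes were higher and 5.46% lower. Without pool 1, 2 or 3 its adjusted p was 0.123, 0.0716 and 0.0620. Higher calls made up 50.8% of all calls, and 84.7% with no genes left out of the library sizes. Etv1 had 0.51 (0.18, adjusted p = 0.0655, or 0.0323 with TMM factors) and Bcl11b 0.48 (0.20, adjusted p = 0.136, or 0.0339 with the pool as a block), each higher in 5 of 5 pools. Without RBP4 ST replicate 4, Bcl6 had 0.56 (0.16, adjusted p = 0.0279) and Bcl11b 0.34 (0.20). Fezf2 had 0.24, with a 95% interval of -0.38 to 0.86, and Ldb2 0.04, from -0.33 to 0.40.

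In the VGAT line Bcl11b was higher in ST than in SNF by 0.40 (0.14, edgeR adjusted p = 0.0327), 1 of 8 members where 16.3% of all genes were higher. Ldb2 fell by 0.45 (0.16, adjusted p = 0.0331) and Tmem232 by 0.92 (0.25, adjusted p = 0.00684) on the log2 scale, 2 of 8 where 11.2% of all genes were lower. All 3 had overlapping ranges and moved in 1 direction in 5 of 5 pools. Bcl11b lost its call without pool 2, 3, 4 or 5 (0.32 to 0.45), Ldb2 without pool 1 or 2 (-0.33 and -0.34) and Tmem232 without pool 1 (-0.72, adjusted p = 0.0531). Bcl6 had 0.35 (0.17, adjusted p = 0.136, or 0.0473 with the pool as a block). Rbp4 had 0.55 (0.24, adjusted p = 0.0882), and was called without pool 1 (0.70) or pool 2 (0.77). With DESeq2 size factors Bcl11b was not called (0.25), and higher calls made up 39.8% of all calls instead of 59.3%, the median of all genes being -0.06 instead of 0.08. With no genes left out of the library sizes that share was 83.7%, and Ldb2 (-0.23) and Tmem232 (-0.72) were not called. The difference between the lines in this step was tested as an interaction, and 0 members and 0 of 17728 genes passed with edgeR, thus 0.0% higher and 0.0% lower, and 0 with DESeq2. At an unadjusted p under 0.05 there were 3 members, Rbp4 (-0.90, 0.39), Tmem232 (0.84, 0.37) and Ldb2 (0.49, 0.24). Without RBP4 ST replicate 4 they had -0.75, 0.98 and 0.61, and 0 members passed.

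**Figure D5:**
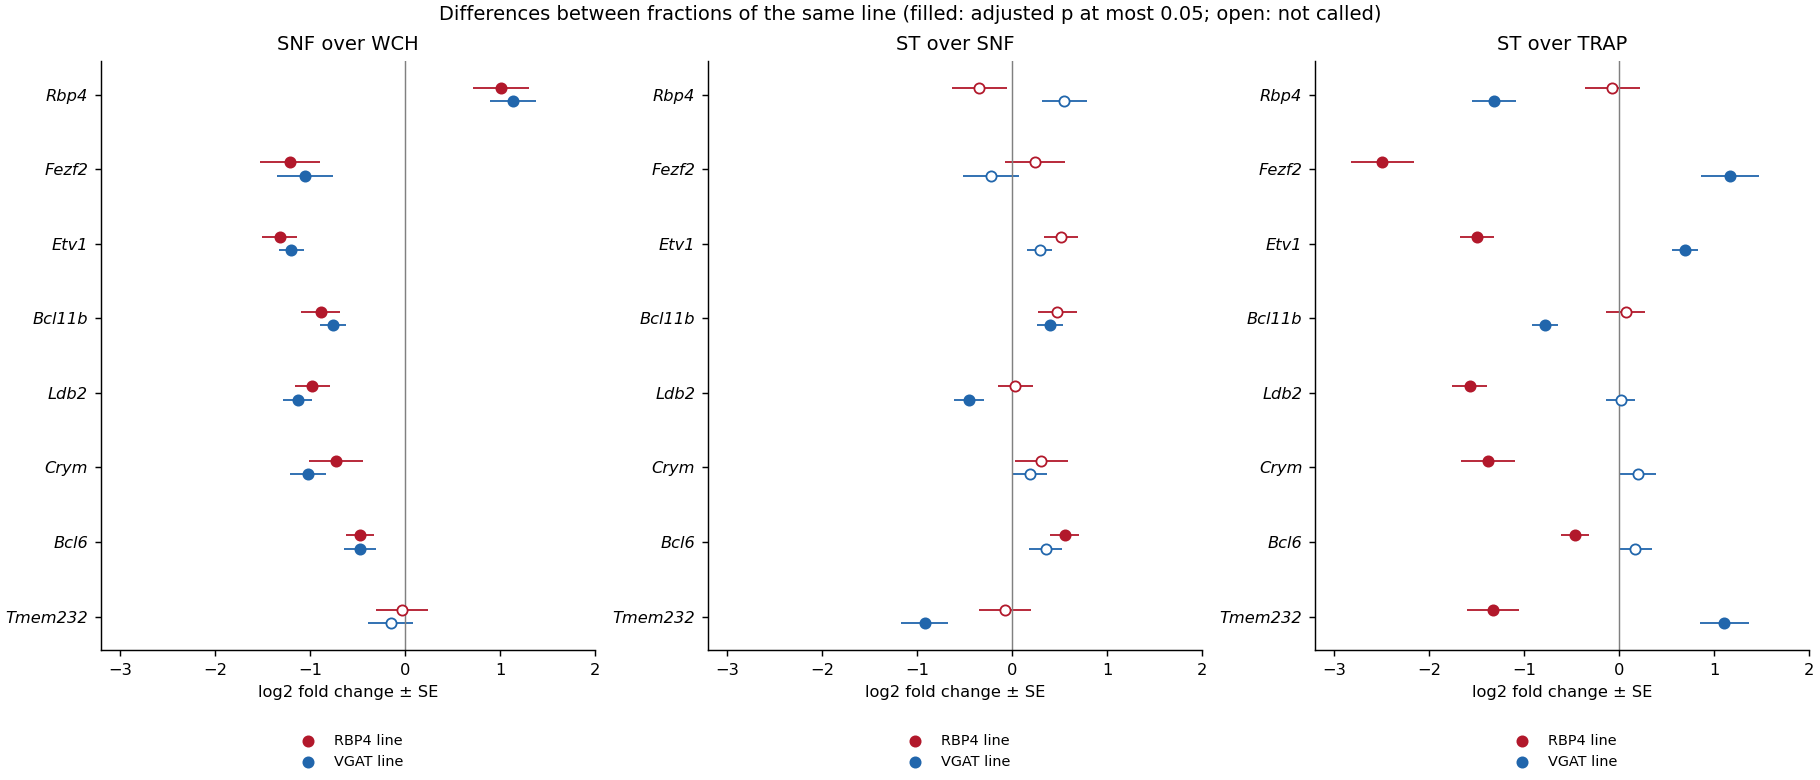
Log2 fold change (x axis) between fractions of the same line, red for the RBP4 and blue for the VGAT line, with the standard error. Filled points passed an adjusted p of 0.05. Rbp4 is higher in SNF than in WCH in both lines (1.01 and 1.13), and ST over TRAP differs in sign between the lines for Fezf2 (-2.49 and 1.16), Etv1 and Tmem232.

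ST was also set against TRAP, the 2 ribosome-bound fractions. Both lines had 6 of 6 astrocyte, 6 of 6 oligodendrocyte, 6 of 6 microglia and 5 of 5 endothelial markers higher in ST. Of the neuronal lists in the RBP4 line, 9 of 16 interneuron markers were higher and 0 lower, and of 7 glutamatergic markers 1 was higher and 4 lower. The part of cells other than the targeted ones in the members' changes was not tested. In the RBP4 line Fezf2, Ldb2, Etv1, Crym, Tmem232 and Bcl6 were lower in ST, 6 of 8 where 29.1% of all genes were, and 0 were higher, where 26.0% were. Fezf2 had -2.49 (standard error 0.33, 5.62-fold lower), Ldb2 -1.57 (0.19), Etv1 -1.49 (0.18), Crym -1.38 (0.29), Tmem232 -1.33 (0.27) and Bcl6 -0.47 (0.15), with no overlap between ST and TRAP. How many of all genes lay without overlap was not counted. Fezf2, Tmem232 and Etv1 are described with no test here, as their TRAP differences between lines were known. The call of Bcl6 was lost without pool 2 (-0.43) or 3 (-0.40) and with DESeq2 size factors (-0.31, adjusted p = 0.0697), which moved the median of all genes from -0.07 to 0.09 and turned Rbp4 to 0.06. Without RBP4 ST replicate 4 the same 6 were called, and Rbp4 and Bcl11b, at -0.07 (0.29) and 0.07 (0.20) with all libraries, had 0.07 and -0.07.

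The VGAT line showed 3 members higher in ST than in TRAP, Fezf2 by 1.16 (0.30), Tmem232 by 1.11 (0.26) and Etv1 by 0.69 (0.13), where 37.5% of all genes were higher. They too are described with no test, as their TRAP differences were known. Rbp4 and Bcl11b were lower, -1.32 (0.24) and -0.78 (0.14), without overlap, where 34.0% of all genes were lower. Fezf2 was higher in 4 of 5 pools, pool 3 being the exception, and its log2 fold change without VGAT TRAP replicate 3 was 1.78 (0.19). Ldb2, Crym and Bcl6 had 0.01, 0.20 and 0.17 and did not pass. VGAT ST held 17.1 ± 1.51 cpm of Fezf2 beside 20.0 ± 4.58 in VGAT SNF (SD, n = 5). Of the neuronal marker lists in this line, 6 of 7 glutamatergic genes were higher in ST than in TRAP and 0 lower, and 16 of 16 interneuron genes were lower. Their part in the rise of Fezf2, Tmem232 and Etv1 was not tested.

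Tested as an interaction, ST minus TRAP differed between the lines for all 8 members, 6 lower in the RBP4 line where 5.79% of all genes were, and 2 higher, Rbp4 and Bcl11b, where 5.02% were. Ldb2 had -1.59 (standard error 0.26) and Crym -1.58 (0.35), with edgeR adjusted p of at most 0.00221. Fezf2 had -3.65 (0.49), Tmem232 -2.43 (0.37) and Etv1 -2.18 (0.22), given with no test because their TRAP differences were known. In the same interaction 7 of 7 glutamatergic markers were lower and 16 of 16 interneuron markers higher. Fezf2 had -4.27 (0.42) without VGAT TRAP replicate 3 and -3.61 (0.52) without RBP4 ST replicate 4. Bcl11b had 0.85 (0.23, adjusted p = 0.0136), lost without VGAT pool 2 (0.80, adjusted p = 0.0554). Bcl6 had -0.64 (0.21, adjusted p = 0.0429), and Rbp4 had 1.24 (0.40), likewise with no test. Leaving out RBP4 pool 1, 2 or 5 or VGAT pool 1, 2, 3 or 4 ended the call of Rbp4 (0.998 to 1.29), and leaving out RBP4 pool 1, 2, 3 or 5, VGAT pool 1, 2 or 5 or RBP4 ST replicate 4 ended that of Bcl6 (-0.69 to -0.54), as did TMM factors (-0.60) and DESeq2 size factors (-0.55). Without RBP4 ST replicate 4 Rbp4 had 1.39 and Bcl11b 0.71, both called. This interaction and that of TRAP minus WCH share the TRAP libraries of both lines. It is the difference between lines in ST less that in TRAP, which were 0.38 and 4.03 for Fezf2 and -1.19 and -2.43 for Rbp4. The TRAP differences of Fezf2, Rbp4, Etv1 and Tmem232 were known when the members were chosen. The counts are thus not independent of that choice.

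In ST itself the lines differed for 1 member. Tmem232 was higher in RBP4 ST by 1.35 (standard error 0.26, 2.55-fold, edgeR adjusted p = 0.0115), where 0.0592% of all genes were higher, and without RBP4 ST replicate 4 it had 1.48 (0.26). Its call was lost without RBP4 pool 5 (1.09, adjusted p = 0.0531) and without VGAT pool 5 (1.31, adjusted p = 0.0830). No member was lower, where 0.266% of all genes were lower. With DESeq2 size factors the median of all genes moved from -0.08 to 0.04 and higher calls made up 34.9% of all calls instead of 18.2%. Rbp4 had -1.19 (0.29, adjusted p = 0.0665), a difference that passed without RBP4 pool 2 (-1.52, adjusted p = 0.00935) and without VGAT pool 1 (-1.36, adjusted p = 0.0417). Bcl6 had 0.50 (0.15, adjusted p = 0.153) although its groups did not overlap, and Fezf2 had 0.38, with a 95% interval of -0.28 to 1.04. Without RBP4 ST replicate 4 Rbp4 had -1.04 (adjusted p = 0.0755), Bcl6 0.51 (adjusted p = 0.0918) and Fezf2 0.42. At an unadjusted p under 0.05 there were 5 members, and DESeq2 called 3.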

How the data were processed

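For each library the authors used STAR 2.0.4b for alignment to the mouse Ensembl genome and Subread featureCounts 1.4.5 to count reads that aligned uniquely. Per the file headers the deposited tables hold raw counts, CPM and RPKM, and CPM and RPKM were used only to check the counts. Exon coordinates match GRCm38. The kit does not mark strand, and no exon of another gene overlaps a member's.

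The 390 mitochondrial, rRNA and tRNA genes were left out of library sizes and tests. Genes that reached 0.5 cpm in 3 or more libraries were fitted with edgeR 4.0.16 in R 4.3.3 (quasi-likelihood test, group means, no further scaling factor), within a line over 20 libraries, between lines over 30 (WCH, TRAP and ST), and over all 40 for SNF between lines and for the interaction of ST and SNF. Calls have an adjusted p of at most 0.05 over all genes tested (Benjamini-Hochberg). The standard error is the log2 fold change divided by the root of F, and 95% intervals are 1.96 standard errors. DESeq2 1.42.0, other scalings and filters, the replicate block and left-out pools were alternatives. Python 3.11.15 was used for the rest.

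Groups and replicate numbers come from the labels. The 4 fractions of a numbered replicate came from 1 pool, and deviations from group means of same-pool libraries correlated by 0.211 (RBP4) and 0.242 (VGAT) on average, against -0.053 and -0.060 between pools, so the numbers pair samples within a line. The labels tie no pool of one line to a pool of the other. No replicates were duplicates (chi-square per degree of freedom at least 8.42). On simulated counts for RBP4 TRAP against WCH, 50 of 100 2-fold and 100 of 100 4-fold changes were recovered, with 6 false calls among 16528 genes, and for TRAP between lines 39 of 100 and 100 of 100, with 11 false calls among 16579 genes. These counts were drawn independently with the same dispersion for every gene and no pool effect. The figures check the fit and need not hold for the real libraries.

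The members and lists were chosen with earlier results of these data known, among them TRAP differences of Etv1, Tmem232, Fezf2 and Rbp4. Named were all 8 members, up to 2 genes per direction with the largest called change from each of the 11 lists, with a mean of at least 1 cpm, the markers Slc17a7, Slc32a1 and Drd1, and the 3 genes most correlated with each member.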

Additional observations from a re-analysis of the deposited data

Results flagged for a closer look

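In 64 sets of 5 libraries, 1 for each member and group, 3 held a library whose gap to the next was over 0.71 of the whole range, and chance flags about 1 in 20 such sets. They were Rbp4 in VGAT TRAP replicate 4 (154 cpm), Fezf2 in RBP4 ST replicate 5 (46.4 cpm) and Fezf2 in VGAT TRAP replicate 3 (18.6 cpm), the library that also held the most Slc17a7 of its group.

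For all 8 members the change between fractions was called as different between the lines, with Fezf2, Rbp4, Etv1 and Tmem232 given as a description. From TRAP to ST, the RBP4 line less the VGAT line was -3.65 for Fezf2, -2.43 for Tmem232, -2.18 for Etv1, -1.59 for Ldb2, -1.58 for Crym and -0.64 for Bcl6, and it was 1.24 for Rbp4 and 0.85 for Bcl11b, on the log2 scale. From WCH to TRAP it was 3.96 for Fezf2, 3.39 for Tmem232, 2.28 for Etv1, 2.23 for Ldb2, 1.996 for Crym and 0.84 for Bcl6, and -2.26 for Rbp4 and -0.90 for Bcl11b. Both sets of differences hold the same TRAP libraries. The TRAP differences of Fezf2, Rbp4, Etv1 and Tmem232 between lines were known when the members were chosen, so neither set is independent of that choice.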

How the results depend on the processing

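Of 68 calls of members over 15 comparisons, 51 were kept in every alternative run. A replicate block moved the count of members lower in RBP4 TRAP than in WCH from 0 to 1, that of members higher in ST than in SNF from 1 to 2 in the RBP4 line and from 1 to 2 in the VGAT line, through Bcl11b and Bcl6, and changed no other call. Within lines and in the interactions this block was the pool. For comparisons between lines it was the replicate number, which the labels do not tie to a shared pool. Between lines, libraries with the same number correlated by 0.148 on average in their deviations from group means (from -0.475 to 0.748), against -0.033 with different numbers, and whether such pools were prepared together was not tested. Fitting all 40 libraries together gave 1 member lower in RBP4 TRAP than in WCH, 2 higher in RBP4 ST than in SNF, 0 higher and 1 lower in VGAT ST than in SNF, and 1 lower in RBP4 ST than in VGAT ST. DESeq2, and edgeR with its size factors, each gave 3 instead of 6 members lower in SNF than in WCH in both lines, and 2 higher (RBP4) and 0 higher (VGAT) in ST than in SNF, as did TMM factors for the last 2 counts. DESeq2 gave 2 members higher and 1 lower in RBP4 ST than in VGAT ST, and the likelihood ratio test and the fit without a filter on low counts 1 lower. Without the filter 0 members were higher in ST than in SNF in either line, and with no genes left out 2 were higher in the RBP4 line, and 4 higher and 0 lower in the VGAT line. Leaving out 1 replicate gave 0 to 1 members higher in RBP4 ST than in SNF, 0 to 2 higher and 0 to 2 lower in VGAT ST than in SNF, 0 to 1 higher and 0 to 1 lower in ST between lines, and 0 to 2 higher in the interaction of ST and TRAP. Signs turned only for members that were not called: Tmem232 in SNF against WCH with DESeq2 (0.38 and 0.31), TMM (0.28 and 0.20) and DESeq2 size factors (0.38 and 0.30) in the RBP4 and VGAT line, Rbp4 in RBP4 ST against TRAP with DESeq2 (0.0625) and its size factors (0.0634), and, with no genes left out, Tmem232 in RBP4 ST against SNF (0.15), Bcl11b in RBP4 ST against TRAP (-0.0236) and Ldb2 in VGAT ST against TRAP (-0.0914). With 1 replicate or library left out, values crossed 0 for Tmem232 in RBP4 SNF against WCH (-0.150 to 0.0167), for Ldb2 (-0.0777 to 0.160), Tmem232 (-0.281 to 0.121) and Fezf2 (-0.119 to 0.443) in RBP4 ST against SNF, for Rbp4 (-0.319 to 0.165) and Bcl11b (-0.0709 to 0.187) in RBP4 ST against TRAP, for Ldb2 in VGAT ST against TRAP (-0.173 to 0.149), for Fezf2 in WCH (-0.0989 to 0.218), for Etv1 (-0.174 to 0.0723) and Fezf2 (-0.0723 to 0.552) in ST and Fezf2 (-0.245 to 0.0454) and Ldb2 (-0.0860 to 0.0376) in SNF between lines, and for Bcl11b in the interaction of ST and SNF (-0.0589 to 0.172). The cause was not tested. The setting that leaves out VGAT TRAP replicate 3 was chosen after seeing the data. With 5 pools a group and 11 to 30 counts of Tmem232 in VGAT TRAP, small differences of rare genes were not detectable, and p-values rest on the spread between pools.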
